A study of Mus musculus with 6 samples.

Results

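The genes described here are 10 members of the fibroblast growth factor (FGF) family in the mouse embryo at E9.5, namely *Fgf3*, *Fgf4*, *Fgf5*, *Fgf8*, *Fgf9*, *Fgf10*, *Fgf13*, *Fgf15*, *Fgf17* and *Fgf18*. They were taken by symbol from the authors' table of 24207 loci, and each symbol was found in 1 entry. RNA-seq had been performed on 6 male embryos that were wildtype for *Smchd1*, a gene of chromatin silencing (Smchd1+/+, 3 embryos), or homozygous for its MommeD1 allele, a mutation from a chemical mutagenesis screen (Smchd1MommeD1/MommeD1, 3 embryos), and the labels name no treatment. Both genotypes came from matings of heterozygous parents, per the paper's methods. The sample labels give C57Bl6/J and FVB/n as the strains, whereas the paper's text describes a backcross to another strain for the embryos that were sequenced. For each locus the table gives a single FPKM per genotype (fragments per kilobase of transcript, scaled to the mapped fragments of the library), the authors' value pooled over the embryos of that genotype. There is therefore no spread between embryos, no SD and no test in what follows, and each difference below describes these pooled values without a replicate check.

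FGFs are secreted growth factors that bind heparan sulfate and receptor tyrosine kinases of the FGFR family on nearby cells, which signal through Ras and the ERK kinases. In the embryo, signaling centers that shape their surroundings make them, such as the tail bud, the midbrain-hindbrain boundary, the rostral forebrain, the pharyngeal arches and the ridge at the tip of the limb bud. *Fgf13* differs from the other members in that its protein stays inside the cell, where it binds sodium channels and microtubules. It is nonetheless a member of the family by sequence, and the term FGF ligands below includes it.

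*Smchd1* itself was at 2.12 FPKM in Smchd1MommeD1/MommeD1 and 34.0 FPKM in Smchd1+/+ embryos, so the columns match the genotypes. For each locus a log2 ratio of mutant over wildtype was computed after 0.1 FPKM had been added to both values, which understates differences at low levels. Loci were counted as past the fold when this ratio was at least 1.5-fold in either direction. The count was made over loci with a gene symbol and a mean of at least 1 FPKM over both genotypes, of which there were 11863. Their median log2 ratio was -0.0073. Of these loci, 1.06% were lower in mutant embryos by at least 1.5-fold and 3.22% were higher. Among the 5484 loci with a mean from 1 to under 10 FPKM, which is the range of most FGF ligands, 1.77% were lower and 6.02% higher.

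Most FGF ligands differed by less than 1.5-fold between the genotypes. Of the 7 members averaging at least 1 FPKM, *Fgf3* alone was past the fold, lower in mutant embryos, and none was past it in the higher direction. *Fgf8*, *Fgf10*, *Fgf13*, *Fgf17* and *Fgf18* had values slightly lower in mutant embryos and *Fgf15* a value slightly higher. The median log2 ratio of these 7 members was -0.19. The values of *Fgf4*, *Fgf5* and *Fgf9*, the other members, were under a mean of 1 FPKM, and these genes were not counted. Summed over all 10 members, FGF transcripts were at 37.0 FPKM in mutants and 39.7 FPKM in wildtypes.

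**Figure D1:**
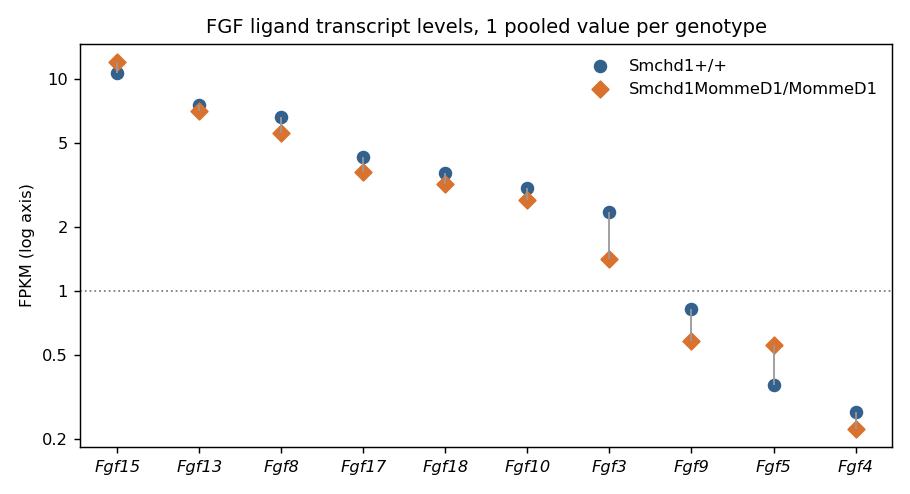
FPKM of the 10 FGF ligands on a log axis, ordered by their wildtype level, with a circle for the Smchd1+/+ value and a diamond for the Smchd1MommeD1/MommeD1 value, each pooled by the authors over 3 embryos; the dotted line marks 1 FPKM. The order of the members was the same in both genotypes, and *Fgf3* shows the widest gap among members above the line.

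Since *Fgf3* was the member past the fold, the sequence before its start is shown beside that of *Fgf4*, the next member on the chromosome. Both genes lie on the plus strand of chromosome 7. The stretches come from the RefSeq promoter windows on GRCm38.p6, the assembly that mm10 names, at chr7:144838362-144838594 for *Fgf3* and chr7:144861136-144861385 for *Fgf4*. They end before the first base that GENCODE M21 annotates as an exon there, and capitals mark CG dinucleotides.
Fgf3: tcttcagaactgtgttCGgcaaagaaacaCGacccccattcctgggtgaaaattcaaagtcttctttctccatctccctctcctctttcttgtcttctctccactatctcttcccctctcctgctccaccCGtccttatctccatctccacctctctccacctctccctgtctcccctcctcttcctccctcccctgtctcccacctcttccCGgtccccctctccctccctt
Fgf4: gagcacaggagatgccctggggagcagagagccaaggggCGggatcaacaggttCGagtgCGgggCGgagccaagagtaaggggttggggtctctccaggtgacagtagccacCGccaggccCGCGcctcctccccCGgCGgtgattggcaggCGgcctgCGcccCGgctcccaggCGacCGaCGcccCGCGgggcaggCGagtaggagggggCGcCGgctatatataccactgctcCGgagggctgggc
The *Fgf3* stretch of 233 bases held 4 CG dinucleotides, whereas the *Fgf4* stretch of 250 bases held 21. These counts depend on where the stretches end. The full windows of 300 bases held 14 for *Fgf3* and 28 for *Fgf4*, both above the median of 7 over all promoter windows. In the authors' table the *Fgf3* locus starts upstream of the first stretch, at 144838295, so that stretch lies inside the locus as the authors defined it.

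*Fgf3*, which signals in the hindbrain, the otic region, the pharyngeal arches and the tail bud, was at 1.41 FPKM in Smchd1MommeD1/MommeD1 and 2.36 FPKM in Smchd1+/+ embryos. The wildtype value was 1.67-fold the mutant one, and the log2 ratio was -0.70. Of the 11863 loci counted, 84 (0.708%) had a ratio as low as this or lower, and so did 63 (1.15%) of those with a mean from 1 to under 10 FPKM. *Fgf3* was past 1.5-fold but not past 2-fold, and with 1 FPKM added to both values in place of 0.1 its log2 ratio was -0.48 and no longer past the fold. The locus lies on chromosome 7 of mm10 from 144838295 to 144844389, and the longest coding transcript in GENCODE M21 has 3 exons and 2299 bases. *Fgf10*, of the same subfamily, is the ligand of limb bud mesenchyme and of the lung field. Its values were 2.68 FPKM in mutants and 3.07 FPKM in wildtypes, a log2 ratio of -0.19. *Fgf10* was thus 1.90 times as abundant per transcript length as *Fgf3* in mutant embryos and 1.30 times in wildtype embryos. *Fgf10* maps to chromosome 13, from 118714644 to 118792573. The other genes of this subfamily, *Fgf7* and *Fgf22*, were at most at 0.139 FPKM, and the subfamily as a whole summed to 4.14 FPKM in mutants and 5.61 FPKM in wildtypes.

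*Fgf8*, *Fgf17* and *Fgf18* form a subfamily of closely related ligands with overlapping sites of expression, of which *Fgf8* is the main signal of the midbrain-hindbrain boundary and of the tail bud. *Fgf8* was at 5.57 FPKM in Smchd1MommeD1/MommeD1 and 6.65 FPKM in Smchd1+/+ embryos, a log2 ratio of -0.25. *Fgf17* had 3.65 and 4.28 FPKM, with a log2 ratio of -0.22. *Fgf18* had 3.20 and 3.62 FPKM, with a log2 ratio of -0.17. All 3 values were thus a little lower in mutant embryos, none by as much as 1.5-fold. A log2 ratio as low as that of *Fgf8* was found at 7.43% of all loci counted, against 9.59% for *Fgf17* and 15.3% for *Fgf18*. Among loci with a mean from 1 to under 10 FPKM, the class of these 3 genes, the shares were 10.7%, 12.8% and 17.9%. Levels of these members relative to each other were close in both genotypes. The ratio of *Fgf8* to *Fgf17* was 1.52 in mutant and 1.55 in wildtype embryos, and that of *Fgf8* to *Fgf18* was 1.74 and 1.84. Summed FPKM of the subfamily was 12.4 in mutant and 14.5 in wildtype embryos. The loci are on 3 chromosomes of mm10. *Fgf8* is on chromosome 19 from 45736501 to 45742932, *Fgf17* on chromosome 14 from 70636196 to 70642440 and *Fgf18* on chromosome 11 from 33117431 to 33147400. GENCODE M21 lists 6 coding transcripts for *Fgf8*, whose products differ in receptor binding, and values per isoform were not used here.

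*Fgf15*, the mouse counterpart of human FGF19, is made in the neural tube and the pharyngeal region of the embryo, and later acts as a gut hormone on bile acid synthesis. It had the highest level of the 10 members in both genotypes, at 12.0 FPKM in Smchd1MommeD1/MommeD1 and 10.7 FPKM in Smchd1+/+ embryos. Its log2 ratio of 0.16 was the one positive value among the 7 members counted, and 18.7% of all loci counted had a ratio as high or higher. *Fgf15* was 8.52 times as abundant as *Fgf3* per transcript length in mutant embryos and 4.55 times in wildtype embryos.

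*Fgf13*, the intracellular member, was at 7.10 FPKM in Smchd1MommeD1/MommeD1 and 7.52 FPKM in Smchd1+/+ embryos, a log2 ratio of -0.08, the smallest of the 10 members in size. Its locus is the only one of the 10 on the X chromosome, from 59062149 to 59250948, and the microRNA gene *Mir504*, listed at 0 in both genotypes, was assigned to the same locus. The embryos were male, with a single X chromosome. Across the 418 X-linked loci counted the median log2 ratio was -0.07, against -0.0052 for the 11440 autosomal ones, so the ratio of *Fgf13* was near the median of its chromosome. Neurons are a known site of *Fgf13* expression. Of 10 neuron genes, all were higher in mutant embryos and 8 were past the fold, with a median log2 ratio of 1.21. They were *Tubb3*, *Dcx*, *Elavl3*, *Elavl4*, *Stmn2*, *Stmn3*, *Nefl* and *Nefm*. Over all loci counted, 3.22% were higher by at least 1.5-fold. *Tubb3*, which encodes a neuronal tubulin, was at 99.9 FPKM in mutants and 37.0 FPKM in wildtypes, and *Gap43* of growing axons was at 39.9 and 31.4 FPKM.

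The remaining members were scarce. *Fgf9*, a ligand of mesothelium, myotome and limb ectoderm, was at 0.580 FPKM in Smchd1MommeD1/MommeD1 and 0.822 FPKM in Smchd1+/+ embryos, a log2 ratio of -0.44. *Fgf5*, best known as a regulator of hair growth and a marker of the epiblast, was at 0.557 and 0.362 FPKM, a log2 ratio of 0.51. *Fgf4*, a ligand of the early embryo, the tail bud and the limb ridge, was at 0.225 and 0.269 FPKM, a log2 ratio of -0.18. *Fgf5* and *Fgf9* had the largest ratios in size after *Fgf3*, at levels where few reads stand behind a value. Without the added 0.1 FPKM, the ratio of *Fgf5* was 1.54-fold. *Fgf4* was the one member that the authors' program did not test for low coverage. *Fgf9* lies on chromosome 14 from 58072686 to 58112720 and *Fgf5* on chromosome 5 from 98254184 to 98277030.

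The depth of the libraries is not stated in the table, but its lowest values lie in steps. At little-covered loci with a single annotated transcript, FPKM multiplied by transcript length in kb was most often between 0.016 and 0.018 in mutant and between 0.014 and 0.016 in wildtype embryos. If that step is taken as 1 read in 1 of the 3 pooled libraries, *Fgf3* rests on roughly 191 reads in mutant and 362 in wildtype embryos, and *Fgf15* on roughly 1279 and 1295. The same reckoning gives roughly 40 and 54 reads for *Fgf4*, 82 and 60 for *Fgf5* and 123 and 197 for *Fgf9*. These figures use the longest coding transcript of GENCODE M21 and are coarse, since the steps were blurred and differ between genotypes, and they give no error between embryos.

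**Figure D2:**
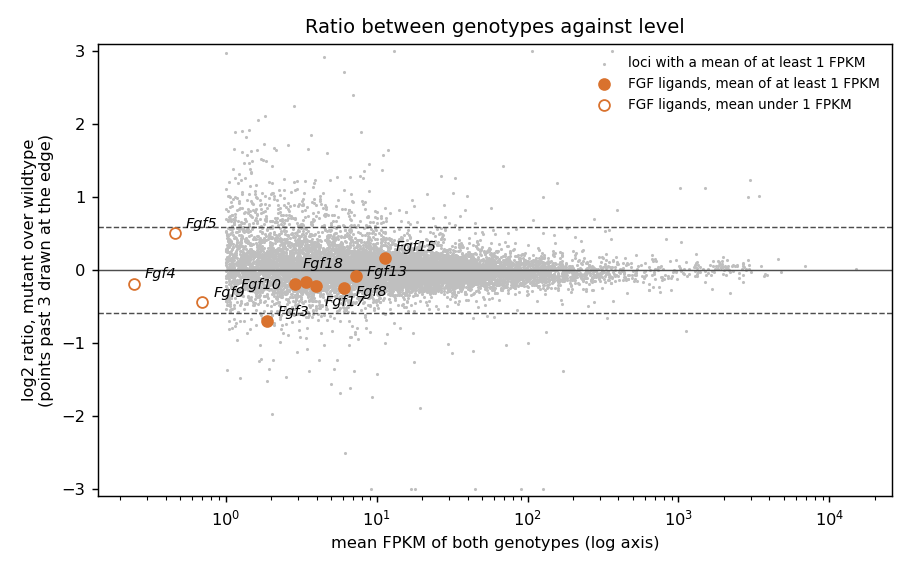
Log2 ratio of mutant over wildtype against the mean FPKM of both genotypes (log axis) for the 11863 loci averaging at least 1 FPKM (gray) and the 10 FGF ligands (orange, open where the mean is under 1 FPKM); dashed lines mark 1.5-fold. *Fgf3*, at -0.70, is the filled point below the lower line, and the other filled points lie between -0.25 and 0.16.

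The make-up of the summed FPKM of the 10 members, which does not depend on the scaling between genotypes, was compared next. The sum includes *Fgf13*, whose protein is not secreted. *Fgf15* supplied 32.5% of the summed FPKM of the 10 members in Smchd1MommeD1/MommeD1 and 27.1% in Smchd1+/+ embryos. *Fgf13* supplied 19.2% and 18.9%, and *Fgf8* 15.1% and 16.8%. The share of *Fgf3* was 3.81% in mutant and 5.94% in wildtype embryos. *Fgf15* and *Fgf3* thus showed the widest gaps in share, in opposite directions, and the ranks of all 10 members were the same in both genotypes. Without replicates it cannot be said which neighbors in this order differ beyond their spread. The 12 FGF genes that are not among the members added 2.30 FPKM in mutants and 2.39 FPKM in wildtypes, and none of them reached a mean of 1 FPKM. The most abundant of these was *Fgf14*, at 0.726 and 0.825 FPKM. Of the binding proteins *Fgfbp1* and *Fgfbp3*, which carry FGFs in the extracellular space, *Fgfbp3* was at 10.6 and 8.48 FPKM, a log2 ratio of 0.31, and *Fgfbp1* was below 1 FPKM.

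**Figure D3:**
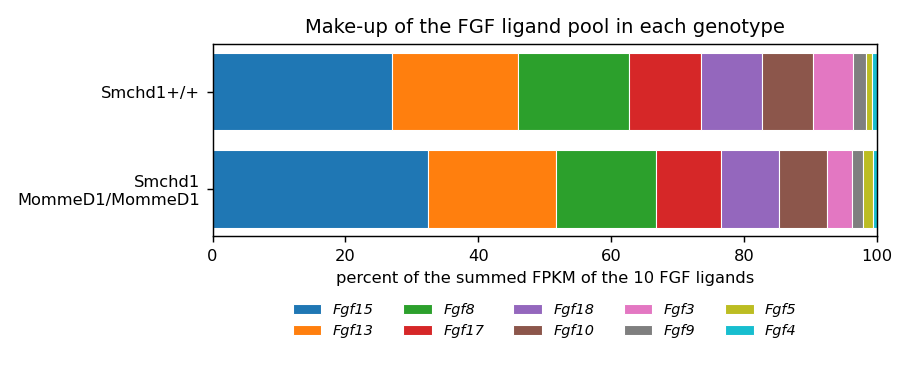
Share of each FGF ligand in the summed FPKM of the 10 members, in percent, with 1 stacked bar per genotype. The *Fgf15* segment covers 27.1% in Smchd1+/+ and 32.5% in Smchd1MommeD1/MommeD1 embryos, and the *Fgf3* segment 5.94% and 3.81%.

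*Fgf3*, *Fgf4* and *Fgf15* lie side by side within 62657 bp of chromosome 7. The end of *Fgf3* and the start of *Fgf4*, at 144861386, are 16996 bp apart, and 31218 bp separate *Fgf4* from *Fgf15*, whose locus runs from 144896462 to 144900951. Along this stretch the log2 ratios were -0.70, -0.18 and 0.16. That of *Fgf3* alone was past the fold, and *Fgf4*, under a mean of 1 FPKM, was not counted. Within 200 kb of *Fgf3* lie also *Ano1*, which encodes a chloride channel, *Oraov1* and *Ccnd1*, which encodes cyclin D1. *Ccnd1* was at 108 FPKM in mutants and 96.4 FPKM in wildtypes, and *Oraov1* was at 7.20 and 7.97 FPKM. *Ano1*, at 2.01 FPKM in wildtypes, had a log2 ratio of 0.30. None of these flanking genes was past the fold. *Fgf3* had the lowest ratio in the region, but it was already known as the member past the fold, so this adds no support. Around the other members, of the loci counted within 200 kb, *Prdm8* near *Fgf5* was past the fold, at 3.05 FPKM in mutants and 1.77 FPKM in wildtypes. No counted locus near *Fgf8* (6 loci), *Fgf9* (2), *Fgf17* (7) or *Fgf18* (2) was past it, and none could be counted near *Fgf10* or *Fgf13*. Over all loci counted, 1.06% were lower by at least 1.5-fold and 3.22% higher. With so few neighbors, these counts do not set the surroundings of the members apart from other loci.

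**Figure D4:**
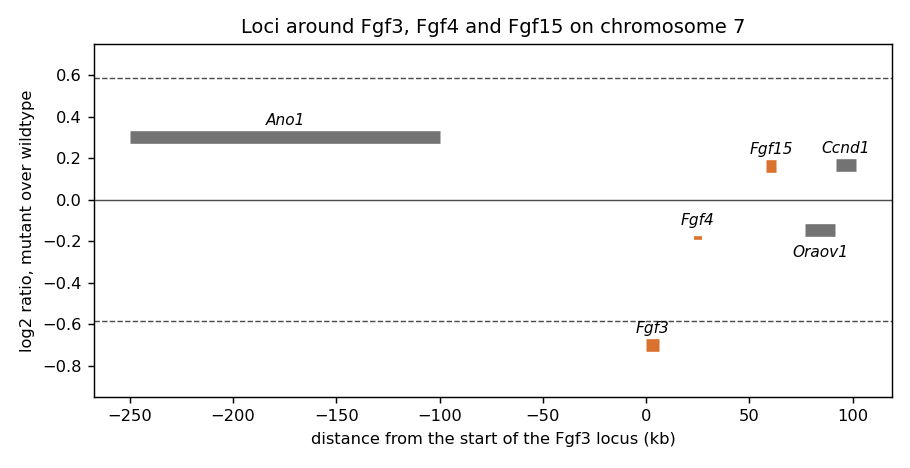
Log2 ratio of mutant over wildtype for the loci within 200 kb of *Fgf3*, drawn from start to end against the distance from the start of *Fgf3* in kb (orange for FGF ligands, gray for other genes, a thin line for *Fgf4*, whose mean was under 1 FPKM); dashed lines mark 1.5-fold. *Fgf3*, at -0.70, lies below the lower line, while *Fgf15* and *Ccnd1* lie above 0.

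The genes that receive and relay FGF signals are described next. Most genes of the FGF pathway lists have a mean of at least 10 FPKM. Among all loci at that level, 0.455% were lower in mutant embryos by at least 1.5-fold and 0.815% were higher. Lists of this size with no gene past the fold are therefore close to the share over all loci. Of 7 receptor and coreceptor genes, 5 could be counted and none was past the fold, with a median log2 ratio of -0.0023. *Fgfr1*, the main receptor of mesoderm, was at 29.6 FPKM in mutants and 29.6 FPKM in wildtypes, and *Fgfr2*, the main receptor of ectoderm and epithelia, was at 19.9 and 20.4 FPKM. Among the 5 counted genes, the ratios of *Fgfr3* and *Fgfr4* were the farthest from 0 and of opposite sign. *Fgfr3* was at 11.5 and 8.52 FPKM, a log2 ratio of 0.43, and *Fgfr4* was at 0.844 and 1.17 FPKM, a log2 ratio of -0.43. The decoy receptor gene *Fgfrl1* was at 13.8 and 12.3 FPKM, and the coreceptors *Kl* and *Klb*, which serve the hormone-like FGFs, were below 1 FPKM. Receptor isoforms, on which ligand choice rests, are not resolved in values per gene.

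Among 22 target and feedback genes, 19 could be counted and none was past the fold in either direction, with 13 below and 6 above a log2 ratio of 0 and a median of -0.07. The ETS factors *Etv4* and *Etv5*, which FGF signaling induces, were at 7.60 and 18.6 FPKM in mutants and 8.53 and 20.5 FPKM in wildtypes. *Dusp6*, an ERK phosphatase that limits the signal, was at 38.6 FPKM in mutants and 36.6 FPKM in wildtypes, and *Spry2*, a feedback inhibitor, was at 14.0 and 15.7 FPKM. *Ccnd1*, already described as a neighbor of *Fgf3*, was the most abundant gene of this list, followed by *Ier2* when the mean of both genotypes is taken, at 38.5 FPKM in each. The lowest log2 ratio of the list was -0.36, for *Dusp5*, and the highest was 0.38, for *Egr1*. All 17 signal carriers between receptor and ERK were counted, with none past the fold and a median log2 ratio of -0.06. *Map2k2*, the most abundant, was at 85.5 FPKM in mutants and 83.5 FPKM in wildtypes. All 16 genes of heparan sulfate synthesis and its core proteins were counted as well, with none past the fold and a median of 0.04. *Gpc3*, a glypican, was at 198 and 207 FPKM, and *Sulf2*, which trims sulfate groups, was at 69.5 and 58.1 FPKM.

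Marker genes of the sites where FGFs are made did not all behave alike. Of 13 tail bud and presomitic mesoderm genes, 9 were lower in mutant embryos by at least 1.5-fold and none higher, with a median log2 ratio of -0.94. These were *T*, *Tbx6*, *Msgn1*, *Cdx1*, *Cdx2*, *Cdx4*, *Nkx1-2*, *Sp5* and *Hes7*. Over all loci counted, 1.06% were lower by at least 1.5-fold. *Cdx4*, a homeobox gene of the posterior body, was at 4.24 FPKM in mutants and 14.4 FPKM in wildtypes, while *Lfng*, which modifies Notch in the segmentation clock, was at 17.2 and 15.9 FPKM. The log2 ratios of the members also made in the tail bud were -0.70 for *Fgf3*, -0.25 for *Fgf8*, -0.22 for *Fgf17* and -0.18 for *Fgf4*. All were closer to 0 than the median of these markers, but inside the markers' range of -1.74 to 0.12. The markers *Cyp26a1* (-0.57), *Wnt3a* (-0.27), *Rspo3* (-0.22) and *Lfng* (0.12) were closer to 0 than *Fgf3*. The summed level of the 13 markers was 55.0 FPKM in mutants and 95.3 FPKM in wildtypes. Their part in the ratio of *Fgf3* was not tested. In whole embryos, fewer cells of a type and less RNA per cell cannot be told apart.

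Of 4 hindbrain segment genes, found at 5 loci, 4 loci could be counted and *Hoxb1* was past the fold, at 6.61 FPKM in mutants and 10.2 FPKM in wildtypes. *Hoxa2* was listed in 2 entries, and in the one that holds it alone it was at 8.65 and 8.30 FPKM. *Egr2*, a factor of hindbrain segments, was at 0.336 and 0.945 FPKM and so was not counted. The median log2 ratio of the 4 loci was -0.19. Of 8 genes of the midbrain-hindbrain boundary, *Lmx1b* alone was past the fold, at 6.38 FPKM in mutants and 3.97 FPKM in wildtypes, and the median log2 ratio was -0.02. *Gbx2*, which sets the hindbrain side of that boundary, was at 5.17 and 6.84 FPKM. None of the counted genes was past the fold among those of the rostral forebrain (5 counted of 6, median -0.09), the limb bud (11 of 11, median 0.02) or the pharyngeal region (7 of 8, median 0.03). Most genes of the lists in this paragraph average from 1 to under 10 FPKM. Among all loci at that level, 1.77% were lower by at least 1.5-fold and 6.02% higher. Lists this small with few or no genes past the fold are therefore not set apart from other loci. The most abundant genes were *Sp8* and *Emx2* in the forebrain list, *Prrx1* and *Msx2* in the limb bud list, and *Hoxa3* in the pharyngeal list, at a locus shared with *Hoxa5* and *Hoxa6*. The pharyngeal gene that was not counted, *Foxi3*, averaged 0.996 FPKM, just under the minimum, and was at 0.692 FPKM in mutants and 1.30 FPKM in wildtypes, a log2 ratio of -0.82.

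Markers of cells that are not known for the ligands counted here also differed between the genotypes. All 5 red blood cell genes were higher in mutant embryos by at least 1.5-fold, against 3.22% of all loci counted. The median log2 ratio of the 5 genes was 1.02. The most abundant by the mean of both genotypes, the embryonic globin genes *Hba-x* and *Hbb-y*, were at 4602 and 4191 FPKM in mutants and 2274 and 1787 FPKM in wildtypes. The other members of that list were *Hbb-bh1*, *Gata1* and *Alas2*. Of 5 visceral endoderm genes, *Afp* was past the fold in the higher direction, at 14.7 FPKM in mutants and 8.10 FPKM in wildtypes. *Ttr* was past it in the lower direction, at 2.48 and 7.51 FPKM, and *Apob*, *Cubn* and *Amn* of that list, all with lower values in mutants, averaged below 1 FPKM. The part of these cells in the FGF values was not tested. Among all loci averaging at least 10 FPKM, 0.455% were lower by at least 1.5-fold and 0.815% higher. None of 9 housekeeping genes was past the fold, which is close to that share, and their median was -0.04. The most abundant were *Ppia*, at 3784 FPKM in mutants and 3948 FPKM in wildtypes, and *Gapdh*, at 3602 and 3462 FPKM.

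**Figure D5:**
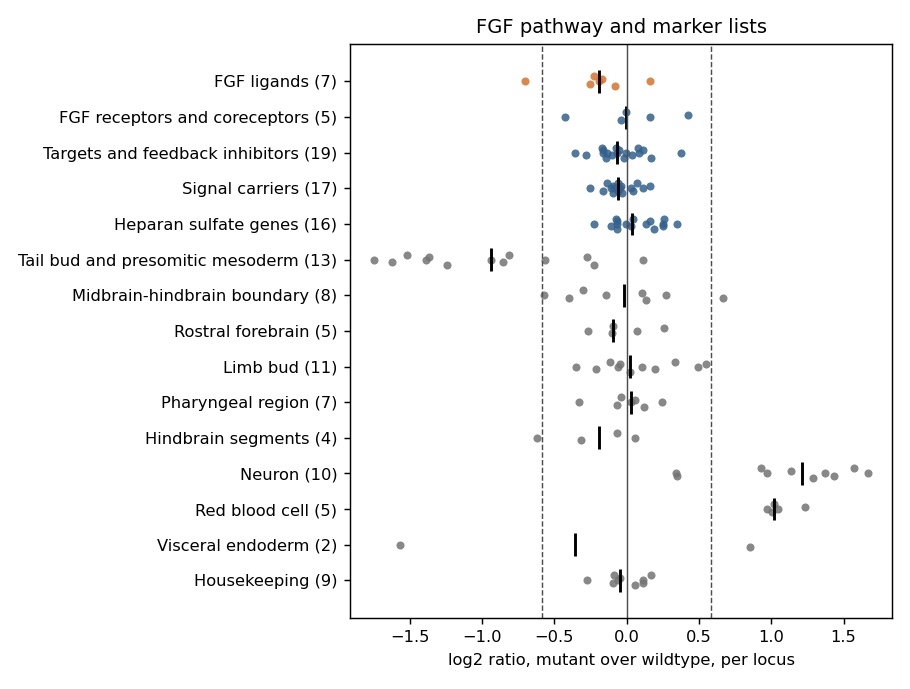
Log2 ratio of mutant over wildtype for each counted locus of the FGF ligands (orange), the FGF pathway lists (blue) and the marker lists (gray), with the number of loci in parentheses, a black bar at the median and dashed lines at 1.5-fold. The FGF ligands have a median of -0.19, with *Fgf3* beyond the lower line, and no locus of the pathway lists lies beyond either line, while the tail bud list (median -0.94), the neuron list (1.21) and the red blood cell list (1.02) lie apart.

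Promoter windows of 300 bases from RefSeq were at hand for 7 members, *Fgf3*, *Fgf4*, *Fgf5*, *Fgf9*, *Fgf10*, *Fgf13* and *Fgf18*, with 4 windows for *Fgf13*. Both strands were searched for short letters like the binding sites of tail bud regulators. CTTTGA, a Tcf/Lef-like motif, was found in 1 of the 10 member windows, that of *Fgf3*. It is held by 5257 of all 32851 promoter windows, a larger share than among the member windows. A match in the *Fgf3* window alone therefore does not set this gene apart. In the *Fgf3* sequence printed above CTTTGA reads TCAAAG on the plus strand and begins at base 54. CTTTGT, of the same kind, was in windows of *Fgf5* and *Fgf13* and is held by 18.7% of all windows. Of the Cdx-like motifs, TTTATT was in the window of *Fgf9* (19.6% of all windows) and TTTATG in none (11.9%). TCACAC, the core of a T-box site, was in the window of *Fgf5* (14.5%). The CG dinucleotides in these windows numbered 47 for *Fgf18*, 29 for *Fgf5*, 28 for *Fgf4*, 14 for *Fgf3*, 12 for *Fgf9* and 10 for *Fgf10*, with a median of 7 over all windows. The 4 windows of *Fgf13* held 40, 37, 6 and 3, of which the last 2 are below that median. These are matches of letters only.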

How the data were processed

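RNA from 6 whole male E9.5 embryos, 3 per genotype by their labels, was analyzed. Per the labels, the authors aligned the reads with TopHat2 2.0.6 and Bowtie2 2.0.2 to mm10 and used Cufflinks and Cuffdiff 2.0.2, and the annotation release is not given in the sources used here. The deposited table gives 1 FPKM value per genotype and locus, pooled by the authors. Its sample names were matched to the genotypes through the paper's own copy of the table. Its fold change, test statistic, p-value, q-value and significance columns, which hold the authors' comparison, were not used.

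Loci without a symbol (1110) and those of status FAIL (134) or HIDATA (1) were left out. The log2 ratio of mutant over wildtype was computed with 0.1 FPKM added, and loci averaging at least 1 FPKM were counted past 1.5-fold. With 1 value per genotype there was no test. Of 15 gene lists, all members past the fold and the 2 most abundant were named, beside all 10 FGF genes and all neighbors within 200 kb past the fold, except for genes that are not reported here. Further genes of the pathway, and those named as the ends of a range, were chosen after their values were seen. The members and lists were chosen with earlier results of these data known. Locus starts were counted from 1. *Hras* was found as *Hras1*. The functions were tested on simulated data. Python 3.11.15, numpy 2.4.6, pandas 2.3.3 and matplotlib 3.10.9 were used.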

Additional observations from a re-analysis of the deposited data

How the results depend on the processing

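The count of 1 FGF ligand past 1.5-fold in the lower direction was the same gene, *Fgf3*, in 7 of 10 alternatives for the pseudocount, the filter, the scaling, the status and the threshold. It was 0 with 1 FPKM added, 0 averaging at least 5 FPKM, which leaves 3 members and drops *Fgf3*, and 0 at 2-fold. The count in the higher direction was 0 in all 10. The median log2 ratio of the FGF ligands was -0.082 when at least 5 FPKM was required and otherwise between -0.20 and -0.14. The median of the receptors stayed within 0.1 of its value near 0 and that of the targets between -0.10 and -0.03. Of 50 values recomputed for single members, 45 moved by at most 0.1 on the log2 scale and all kept their sign; the others belong to *Fgf3*, *Fgf4*, *Fgf5* and *Fgf9*. No scaling moved the median of all loci by over 0.1.

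No paired analysis was possible because the table holds 1 pooled value per genotype, and leaving out single embryos was not possible for the same reason. These values do not show whether 1 embryo stands apart from the others of its genotype.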
